A study of Mus musculus with 12 samples.

Results

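The Rab family of small GTPases, together with the proteins that activate, inactivate or bind them, was examined in the antral region of the stomach of mice that develop SV40 T antigen-driven gastric tumors. The question was which of these membrane trafficking genes follow a tumor that acquires secretory granules. Members were taken by symbol: a symbol that starts with Rab and a number, or with Rabgap, Rabgef, Rabep, Rabac, Rabif or Rab11fip. Rab3a was left out of the rule. Of 8702 genes that the array table allowed to be named, 37 met the rule, and they were represented by 48 of its 46116 probes. RefSeq genes of GRCm38.p6 include 85 of such symbols besides Rab3a, and those with no named probe were not analyzed here. Where a gene had several probes, the brightest of them on average stands for it.

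RNA was hybridized to 1-color Illumina Sentrix Mouse-6 arrays, 1 array per mouse, in 4 groups of 3 mice. The first group held non-transgenic C57Bl/6 controls, described as littermates in the text of the study. Their age is 2 to 6 months by the labels and 90 days by 1 legend. The other groups were CEA424-SV40 TAg mice of the same background at 30, 60 and 90 days of age, hemizygous for a transgene in which a minimal human CEA promoter drives the T antigens. Tumor was not separated from the surrounding antrum, so each transgenic sample held both, and in such bulk tissue fewer cells of a type and less RNA per cell cannot be told apart. The labels do not say which mice shared a litter, and p-values measure the spread between these animals only.

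Rab proteins cycle between a GDP-bound form in the cytosol and a GTP-bound form on a membrane, where they recruit effectors that move, tether or fuse vesicles. Guanine nucleotide exchange factors (GEFs) load them with GTP, and GTPase-activating proteins (GAPs) end the active state. Each Rab marks its own compartment: Rab3 and Rab27 proteins work on secretory granules, Rab5, Rab4 and Rab11 proteins on early and recycling endosomes, Rab7 and Rab9 on late endosomes, and Rab6 proteins at the Golgi. Neuroendocrine cells rely on the granule Rabs for hormone release, and the acid-secreting parietal cells of the stomach carry Rab11a, as known from rabbit, on the membranes that hold the proton pump.

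Signal below means background-corrected, quantile-normalized intensity, and signals are given per array or as mean ± SD (n = 3). A gene was tested where its signal was above 100 on at least 3 of the 12 arrays, which 31 of the 37 members met. Rab10os, Rab18, Rab31, Rab3c, Rab42 and Rab44 did not. Each comparison was fitted over all 22067 tested probes with limma, and a gene is said to rise or fall only where its Benjamini-Hochberg adjusted p was under 0.05. A probe for the SV40 large T antigen, the check of the labels, read 69.1, 72.3 and 67.5 in the controls and 80.1 or more in all 9 transgenic mice (exact permutation test of transgenic against control, two-sided p = 0.00909, over 220 splits). Several cell type markers differed at day 90. The summed signal of 6 neuroendocrine granule genes (Scg2, Syt4, Pcsk2, Ddc, Syp and Snap25) was 959.5 to 1117 in the controls and 18011 to 23895 at day 90, and 5 of the 6 rose. The 4 genes of the parietal and chief cell list summed to 8513 to 29161 in the controls and 1699.8 to 2401 at day 90, where 3 of the 4 fell. All 5 smooth muscle genes fell and 3 of 4 tested enteric neuron genes rose. Of 7 squamous epithelial genes 6 fell against control, but none changed against day 60, and all 7 were already lower in every day 30 mouse (median log2 fold change at day 30 against control of -3.17, with 7 unadjusted p under 0.05 and none past the threshold). Their sum was 8289 in day 90 mouse 1 against 606 and 679.9 in the other 2. Of the antral epithelial markers only Psca had a named probe. It fell at day 90 but stayed at 18668 to 23035, against 32077 to 43594 in the controls. The part of these marker levels in the values below was not tested.

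At day 90 against control, the comparison in which the granule genes rose by up to 78.4-fold (Scg2), 2 of the 31 tested members passed. Rabgap1 rose and Rab11fip1 fell. This is 6.45% of the members, beside 19.5% of all tested probes (10.4% higher and 9.17% lower), 22.2% of the brightest probes of named genes and 33.3% of probes with a mean signal above 200, of which 1 was called among the 16 such members. The groups did not overlap for 12 members, or 38.7%, beside 37.8% of all probes. The median size of the log2 fold change was 0.169 over the members and 0.213 over all probes. The count was 0 without control mouse 1, day 90 mouse 2 or day 90 mouse 3, and 1 or 2 without each of the others. The member that differed the most, Rabgap1, was 1.46-fold higher. An unadjusted p under 0.05 was reached by 7 of the 31 members and 32.4% of all probes. For 28 of the 29 members that did not pass, the 95% interval of the log2 fold change lay within -1 and 1. The exception was Rab26. These intervals are on signals with an offset of 50, which makes folds of dim probes too small. A mean signal of 200 or less was found in 15 of the tested members, and for these the intervals do not bound the change in RNA.

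Day 90 against day 60 sets the large tumors beside transgenic antrum of younger mice with a small tumor load. Here 6 of the 31 members passed. This is 19.4%, beside 19.8% of all tested probes (9.94% higher and 9.83% lower), 21.8% of the brightest probes of named genes and 35.2% of probes with a mean signal above 200. Rabgap1, Rab3gap2, Rab6b and Rabep1 rose, and Rab27b and Rab11a fell. The groups did not overlap for 15 members, or 48.4%, beside 34.2% of all probes. The count was 3 without day 60 mouse 1 or without day 90 mouse 3, and between 3 and 7 over the omission of each mouse. The median size of the log2 fold change was 0.139 over the members and 0.156 over all probes. Both comparisons use the same day 90 arrays, so their values are not independent of each other. Age and tumor load differ together between the transgenic groups and cannot be told apart.

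**Figure D1:**
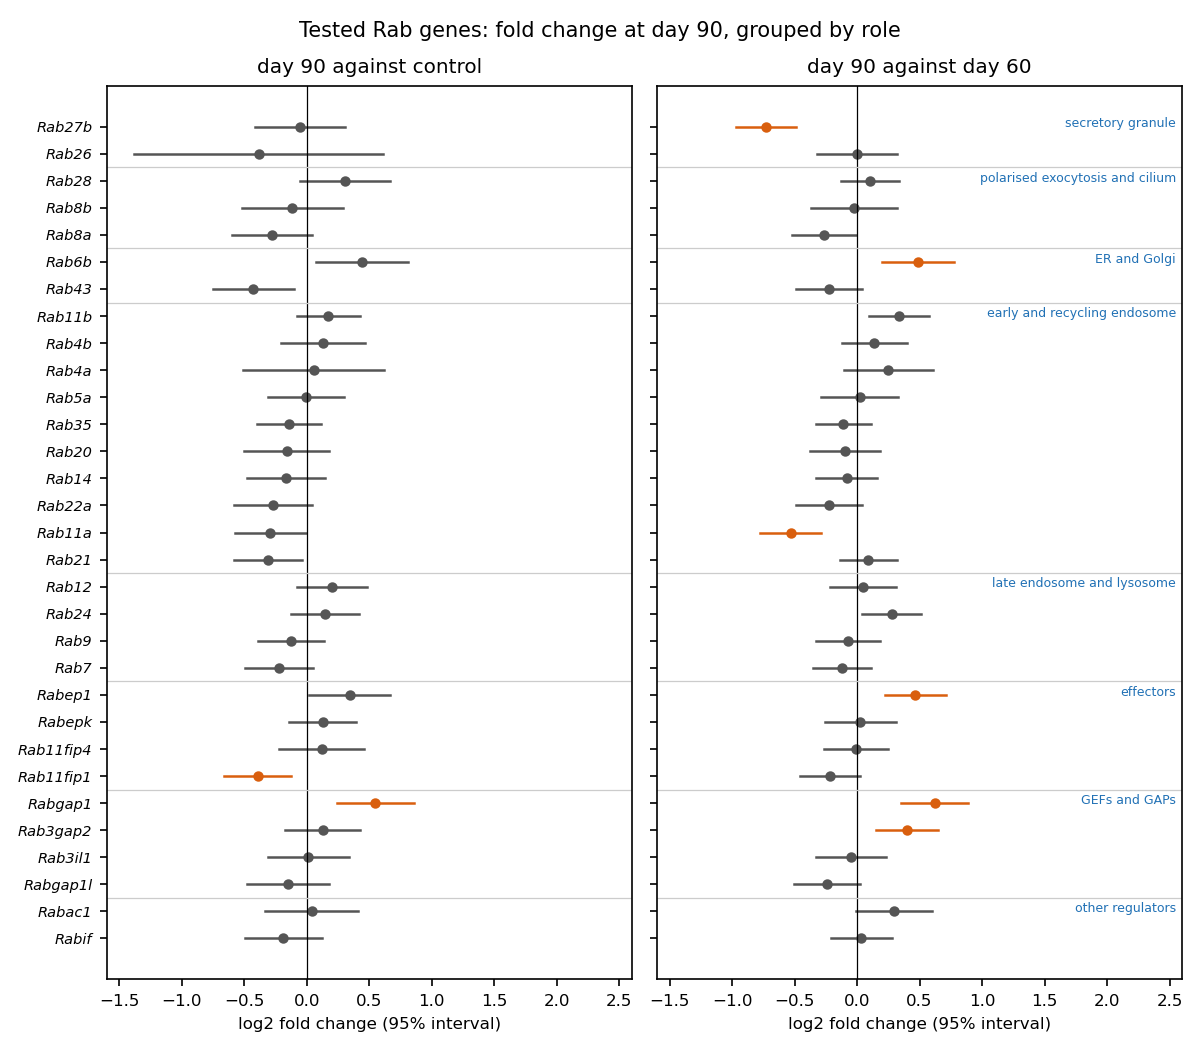
Log2 fold changes of the 31 tested Rab genes at day 90 against control (left) and against day 60 (right), with 95% intervals from limma, ordered by role and 3 mice per group. Orange marks an adjusted p under 0.05, which 2 genes reached on the left and 6 on the right.

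Only 3 secretory granule Rabs had a named probe. Neither of the 2 tested, Rab27b and Rab26, rose at day 90 against control, and Rab3c was too dim to test. Rab3b, Rab3d, Rab27a and Rab37 had no named probe and Rab3a was outside the rule, so these have no value here. Rab27b, which docks secretory granules at the plasma membrane, had signals of 237, 212 and 160.2 in the controls and 258, 159 and 164 at day 30. At day 60 it read 299.6, 322 and 338, above every other array of the series, and at day 90 it was back at 205, 193 and 183. The day 60 mice stood apart, and the day 90 arrays lay inside the range of the controls. The fall from day 60 to day 90 had the smallest p of any member (log2 fold change of -0.73 ± 0.11 (SE), 95% interval of -0.96 to -0.49, limma adjusted p = 8.84e-04, lower in 3 of 3 mice). The difference between day 60 and control was of similar size but did not pass (log2 fold change of 0.67 ± 0.16 (SE), 95% interval of 0.32 to 1.03, limma adjusted p = 0.0984), and neither did day 60 against day 30 (log2 fold change of 0.76, adjusted p = 0.12), except without day 30 mouse 1, the highest of its group (adjusted p = 0.0204). At day 90 against control the log2 fold change was -0.05, with a 95% interval of -0.41 to 0.31. The second probe of Rab27b stayed at or below the level of 100 on all arrays (60.0 to 80.4), so the day 60 level rests on 1 probe. None of the 9 lists of cell type markers had a summed signal that was higher in all 3 day 60 mice than on every other array. These lists are short, with 1 gene for the antral epithelium, and the part of cell types in the day 60 level was not tested.

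Rab26, a Rab of secretory granules in exocrine cells, read 301, 98.0 and 72.0 in the controls, 94.4, 113 and 106 at day 30, 89.2, 89.6 and 119.8 at day 60 and 86.7, 111 and 99.4 at day 90. Control mouse 1 stood apart, and without it the log2 fold change at day 90 against control was 0.23 (adjusted p = 0.463). With it the interval was wide (log2 fold change at day 90 against control of -0.38, 95% interval of -1.38 to 0.61, limma adjusted p = 0.598). That mouse also had the highest summed signal of 4 pancreatic acinar genes among the controls, 4304 against 352 and 301. The acinar sum was also high in day 60 mouse 3 (2955), day 90 mouse 2 (3281) and day 90 mouse 3 (7289). Their Rab26 signals were 119.8, 111 and 99.4. Those of day 60 mouse 3 and day 90 mouse 2 were the highest of their groups, and that of day 90 mouse 3 was not. The part of acinar tissue was not tested. The second Rab26 probe read 98.7, 103 and 68.1 in the controls, so the 2 probes disagreed on control mouse 1. Rab3c, a Rab3 protein of synaptic vesicles, was close to background, at 79.0, 70.0 and 74.6 in the controls and 74.5, 86.1 and 85.6 at day 30. It reached 90.3, 86.3 and 87.1 at day 60 and 94.3, 105 and 91.3 at day 90. It was not well above background in the first 3 groups and exceeded 100 on 1 array, that of day 90 mouse 2, where the second probe also read 105. With no filter on dim probes its difference at day 90 against control did not pass (log2 fold change of 0.38, limma adjusted p = 0.088).

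**Figure D2:**
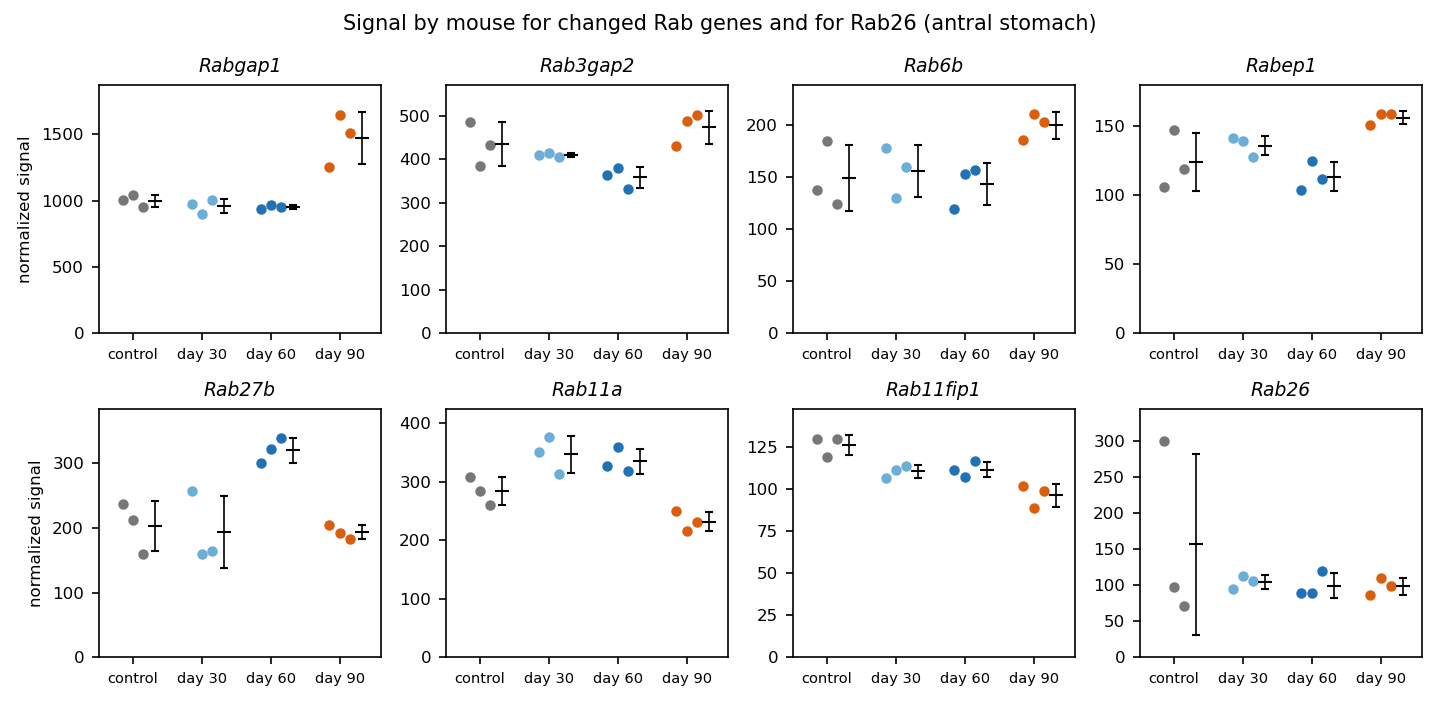
Normalized signal (linear axis from 0) of the 7 changed Rab genes and of Rab26 in each mouse, colored by group, with the group mean and SD (n = 3) as black bars. Rab27b peaks at day 60, Rabgap1 is high only at day 90, and control mouse 1 stands alone for Rab26.

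Among the GEFs and GAPs, 1 of the 4 tested members rose at day 90 against control and 2 rose against day 60. Of all tested probes 19.5% and 19.8% passed in these comparisons, and 4 genes are too few to set against such shares. Rabgap1, a TBC domain GAP, read 1006, 1039 and 949.9 in the controls, 972, 898 and 1007 at day 30 and 934, 964 and 949 at day 60. At day 90 it read 1255, 1641 and 1510.1, and all 3 mice lay above the other 9. It rose against control (log2 fold change of 0.55 ± 0.13 (SE), 95% interval of 0.24 to 0.85, limma adjusted p = 0.0209) and against day 60 (log2 fold change of 0.62 ± 0.12 (SE), 95% interval of 0.35 to 0.89, limma adjusted p = 0.00441). The rise against control no longer passed without control mouse 1 (adjusted p = 0.0505), without day 90 mouse 2 (0.0768) or without day 90 mouse 3 (0.0865), with log2 fold changes of 0.46 to 0.56 in these 3 fits.

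Rab3gap2, the noncatalytic subunit of the GAP complex for Rab3 proteins, read 486, 385 and 434 in the controls, 411, 416 and 406 at day 30, 364, 379.9 and 332 at day 60 and 431, 489 and 502 at day 90. The day 60 mice were the lowest of all arrays and the day 90 mice overlapped the controls. It rose at day 90 against day 60 (log2 fold change of 0.40 ± 0.11 (SE), 95% interval of 0.15 to 0.65, limma adjusted p = 0.0294), while the log2 fold change against control was 0.13 (adjusted p = 0.566). Rab3gap2 lost its call in 8 of 19 alternatives, among them the replicate block (adjusted p = 0.0705). The omission of day 60 mouse 1 or 3 or of day 90 mouse 2 or 3 gave log2 fold changes of 0.35 to 0.41 and adjusted p of 0.0723 to 0.129. Rab3il1, a GEF for Rab3a and Rab8 proteins, ranged from 79.3 to 107 over the 12 arrays, and Rabgap1l, a paralog of Rabgap1, from 107 to 162. Neither passed in any comparison. The second probe of Rabgap1l was at 68.9 to 108. The chaperone Rabif and Rabac1, a prenylated Rab acceptor of the Golgi, did not pass either. Rabac1 read 829.7, 1058 and 826 in the controls and 781, 919 and 1097 at day 90, with a log2 fold change of 0.04 and a 95% interval of -0.33 to 0.41.

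Of the Rabs of the endoplasmic reticulum and Golgi, Rab6b is the Rab6 isoform best known from neurons. It read 138, 185 and 125 in the controls, 179, 129.8 and 160.2 at day 30, 120.1, 153 and 157 at day 60 and 186, 211 and 203 at day 90, where all 3 mice were above the other 9, by a narrow margin over control mouse 2. It rose against day 60 (log2 fold change of 0.49 ± 0.13 (SE), 95% interval of 0.20 to 0.77, limma adjusted p = 0.0218; 0.82 from the deposited normalized values) and missed the threshold against control (log2 fold change of 0.44 ± 0.16 (SE), 95% interval of 0.08 to 0.81, limma adjusted p = 0.0911). The rise against day 60 no longer passed without day 60 mouse 1 (adjusted p = 0.0931), day 90 mouse 2 (0.0747) or day 90 mouse 3 (0.0711), and without control mouse 2 the difference from control passed (0.0233). The enteric neuron and glia list moved in the same direction, with a summed signal of 819.6 to 1023 at day 60 and 1905 to 2475 at day 90, as did the granule list, and their part was not tested. Rab43, which acts at the Golgi, read 144, 141 and 184 in the controls and 106, 122 and 118 at day 90. All 3 day 90 mice were below the controls, and the difference was the next after the 2 calls against control without passing (log2 fold change of -0.43 ± 0.14 (SE), 95% interval of -0.75 to -0.11, limma adjusted p = 0.0668). Its second probe was at 53.2 to 74.9 on all arrays. Rab18, which acts on lipid droplets and the endoplasmic reticulum, ranged from 70.3 to 101.

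The early and recycling endosomes held the largest group, with 11 members of which 10 were tested. None passed at day 90 against control and 1, Rab11a, passed against day 60, beside 19.5% and 19.8% of all probes. Rab11a read 308, 284 and 259 in the controls, 351, 375 and 313 at day 30 and 326, 359 and 319 at day 60, and 249, 215 and 231 at day 90. The day 90 mice were the lowest of all arrays. It fell against day 60 (log2 fold change of -0.53 ± 0.11 (SE), 95% interval of -0.77 to -0.28, limma adjusted p = 0.00631). Against control all 3 day 90 mice were also lower, without passing (log2 fold change of -0.29 ± 0.12 (SE), 95% interval of -0.57 to -0.01, limma adjusted p = 0.143). Its effector Rab11fip1, also called Rab coupling protein, was dim and read 129.96, 119 and 129.9 in the controls, 107, 111 and 114 at day 30, 112, 107 and 117 at day 60 and 102, 88.7 and 99.0 at day 90. It fell at day 90 against control (log2 fold change of -0.39 ± 0.12 (SE), 95% interval of -0.66 to -0.12, limma adjusted p = 0.0483), close to the threshold and with day 90 signals near the level of 100. The call was lost in 12 of 18 alternatives, including the omission of any 1 of the 6 mice, which gave adjusted p up to 0.13. Its adjusted p against day 60 was 0.223. The parietal and chief cell list was lower at day 90 as well, with sums of 16990.5 to 21092 at day 60 and 1699.8 to 2401 at day 90. In day 30 mouse 2 that list summed to 6156, and Rab11a had its highest signal of the series, 375. In control mouse 3 it summed to 8513, against 20569 and 29161 in the other controls. Rab11a had its lowest control signal in that mouse, 259. The part of parietal cells was not tested.

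Rab11b, the close paralog of Rab11a, read 3116, 2976 and 3151 in the controls and 3280, 3763 and 3126 at day 30. It read 2558, 2988 and 2723 at day 60 and 3527, 3561 and 3328 at day 90. All 3 day 90 mice were above the controls and the day 60 mice, but they overlapped day 30, where mouse 2 was the highest of the series. The log2 fold change of 0.34 against day 60 did not pass (95% interval of 0.10 to 0.58, limma adjusted p = 0.0528). It passed in 5 of the 19 alternatives, 1 of them the omission of day 60 mouse 2 (adjusted p = 0.0489). Probe sequences were not used here, so the extent to which either probe reads the other gene was not analyzed. The 2 fast recycling Rabs did not pass, and Rab4a spread widely within groups, with 339.9, 197 and 372 in the controls and 248, 300.2 and 374 at day 90. Rab4b ranged from 203 to 287 over all arrays. Rab21, which carries integrins through early endosomes, was highest in the controls, at 283, 279.7 and 238, and read 243, 229 and 226 at day 30, 198, 193 and 214 at day 60 and 215, 214 and 214 at day 90. It did not pass, with an adjusted p of 0.108 at day 90 against control. Rab35, which returns receptors to the surface, Rab14 and Rab22a, which sort cargo between endosomes and the Golgi, Rab20 and Rab5a, a Rab of early endosome fusion, had adjusted p between 0.217 and 0.98 at day 90 against control. Rab31 stayed between 78.1 and 122 and above 100 on 2 arrays.

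Among the effectors, Rabep1 (rabaptin-5, which links Rab5 and Rab4 on early endosomes) read 106, 148 and 119 in the controls, 141, 139 and 128 at day 30, 104, 125 and 112 at day 60 and 151, 159 and 159 at day 90. The 3 day 90 mice were the highest of the series. It rose against day 60 (log2 fold change of 0.46 ± 0.11 (SE), 95% interval of 0.22 to 0.71, limma adjusted p = 0.0127; the deposited normalized values gave a log2 fold change of 0.83) and did not pass against control (log2 fold change of 0.34, adjusted p = 0.132). Without day 60 mouse 1, day 60 mouse 3 or day 90 mouse 3 the rise no longer passed (adjusted p = 0.0621, 0.0517 and 0.0517). Its partner Rab5a did not pass, with a log2 fold change of 0.02 at day 90 against day 60 and a 95% interval of -0.29 to 0.33. Rab11fip4 and the Rab9 effector Rabepk did not pass, and ranged from 88.1 to 123 and from 92.2 to 124.

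All 4 members of late endosomes and lysosomes were tested. None passed at day 90 against control or day 60, beside 19.5% and 19.8% of all probes. Rab7, the Rab of late endosomes, read 1659, 1579.6 and 1438 in the controls and 1412, 1252 and 1332 at day 90. The day 90 mice were all lower, by a log2 fold change of -0.23 that did not pass (adjusted p = 0.234). Its 2 other probes gave 174, 214 and 165 and 193, 152 and 155 in the controls and 149, 139.5 and 159 and 133, 126 and 149 at day 90, likewise all lower. Rab24, linked to autophagy, read 349, 358 and 331 at day 60 and 397, 412 and 452 at day 90, with an adjusted p of 0.101. Rab9, which returns receptors to the Golgi, and Rab12 ranged from 105 to 170.2 and from 135 to 189. Of the Rabs of polarized exocytosis and the cilium, Rab28 is a Rab of the ciliary base. It read 953, 1364 and 1329.8 in the controls, 1223, 1765 and 1692 at day 30 and 1389, 1542 and 1535 at day 90. Day 90 against control did not pass (95% interval of the log2 fold change of -0.05 to 0.67). Rab8a, which carries exocytic vesicles, read 313, 225 and 258 in the controls and 221, 213 and 216 at day 90 on its brighter probe, where all 3 day 90 mice were lower, while on its second probe (177, 168 and 142 against 155, 139 and 164) the groups overlapped. Rab8b ranged from 376 to 588. Rab10os, an RNA antisense to Rab10, and Rab42 and Rab44 stayed below 100 on all arrays.

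Before day 90 no member passed. At day 60 against control 0 of 31 passed, beside 0.856% of all probes, and 2 members, Rab27b and Rab21, and 14.5% of all probes had an unadjusted p under 0.05. After Rab27b, the smallest p belonged to Rab21 (log2 fold change of -0.40, adjusted p = 0.166) and Rab3gap2 (log2 fold change of -0.27, adjusted p = 0.367), both lower in 3 of 3 mice. At day 30 against control limma called 0 members and 0% of all probes. No member and 887 probes (4.02%) had an unadjusted p under 0.05, and the smallest p belonged to Rab11a (log2 fold change of 0.29, adjusted p = 0.999), Rab9 (log2 fold change of 0.26, adjusted p = 0.999) and Rab28 (log2 fold change of 0.36, adjusted p = 0.999). At day 60 against day 30 0 members passed, beside 0.358% of all probes, and 4 members and 13.1% of all probes had an unadjusted p under 0.05. There the smallest p after Rab27b belonged to Rab43 (log2 fold change of -0.39, adjusted p = 0.34) and Rab11b (log2 fold change of -0.30, adjusted p = 0.356).

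The ratio of the highest to the lowest of the 4 group means had a median of 1.22 over the 31 tested members and 1.25 over all tested probes. It was under 1.5 in 27 members, or 87.1%, beside 77.3% of all probes, with a maximum of 1.65 in Rab27b. In no member did the group means step up in the order control, day 30, day 60 and day 90, and in 4 they stepped down. The highest group mean was that of day 90 in 11 members, of the controls in 10, of day 30 in 7 and of day 60 in 3. The lowest was that of day 90 in 13 members, of day 60 in 10, of the controls in 4 and of day 30 in 4. The same counts over all probes were not made.

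**Figure D3:**
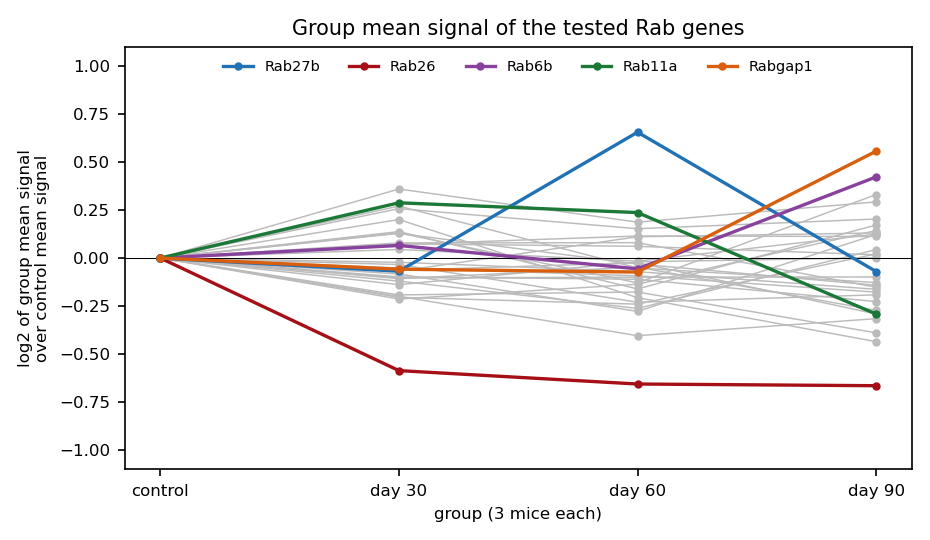
Group mean signal of each of the 31 tested Rab genes as log2 of its ratio to the control mean, by group (3 mice each, means without error bars). Gray lines are the other members, most of which stay near 0, while Rab27b is high at day 60 and Rabgap1 and Rab6b are high at day 90. The line of Rab26 is set by 1 control mouse.

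Other genes of the Rab pathway were taken from lists of regulators and effectors. Of 140 genes in 5 lists of Rab regulators and effectors outside the symbol rule, 72 had a named probe and 53 were tested. At day 90 against control 3 rose and 2 fell, beside the 19.5% of all probes given above. Against day 60, 3 rose and 6 fell, beside 19.8% of all probes (9.94% higher and 9.83% lower). The counts within each list below stand beside the same shares. The 1 tested gene of the list of prenylation and membrane recycling did not pass in either comparison. Of the effectors of secretory Rabs, 1 of 5 tested rose. Rims2, a Rab3 effector at sites of vesicle release, was not well above background in the controls and at day 30, at 83.5, 71.1 and 77.7 and 84.9, 98.2 and 79.5. It read 122, 104 and 87.2 at day 60 and 151, 174 and 164 at day 90, at least 1.63-fold higher than in the controls when these are set at 100 (limma adjusted p = 5.32e-04). The other 4, Rims3, Rph3al, Sytl3 and Unc13b, did not pass against control, and Unc13b, a protein that primes vesicles, fell against day 60 (log2 fold change of -0.59 ± 0.12 (SE), adjusted p = 0.00665).

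Of 13 tested TBC domain GAPs, 1 rose at day 90 against control. Tbc1d8 read 163, 190.3 and 107 in the controls and 245, 259.99 and 242 at day 90 (log2 fold change of 0.74 ± 0.20 (SE), 95% interval of 0.28 to 1.19, limma adjusted p = 0.0316), and it rose against day 60 together with Sgsm3, which read 1391, 1255 and 1141 at day 60 and 1401, 2190.3 and 1950.3 at day 90. Of 19 tested exchange factor genes, 1 fell against control and 3 against day 60. Trappc6a, a subunit of the TRAPP complexes that activate Rab1 and Rab11 proteins, read 219, 303 and 187 in the controls and 126, 109 and 139 at day 90, below all other arrays (log2 fold change of -0.90 ± 0.19 (SE), 95% interval of -1.32 to -0.48, limma adjusted p = 0.0101). Dennd2d and Rin1, a GEF of Rab5, fell against day 60 but did not pass against control. Of 15 tested effectors of endosomal and Golgi Rabs, 1 rose and 1 fell against control, and 2, Myo5c and Micall2, fell against day 60. Myo5c, a myosin motor of exocrine and other epithelial cells that binds Rab8 and Rab10 proteins, read 1709, 1680.3 and 1468 in the controls, 1351, 1314 and 1537 at day 60 and 738, 954 and 985 at day 90 (log2 fold change of -0.87 ± 0.15 (SE), 95% interval of -1.20 to -0.54, limma adjusted p = 0.00393). Ocrl, an inositol phosphatase that binds several Rabs, read 97.5, 95.9 and 129 in the controls, 181, 139 and 159.9 at day 60 and 159, 249.6 and 179.8 at day 90. It rose against control (log2 fold change of 0.86 ± 0.19 (SE), 95% interval of 0.42 to 1.29, limma adjusted p = 0.0143) and overlapped at day 60.

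**Figure D4:**
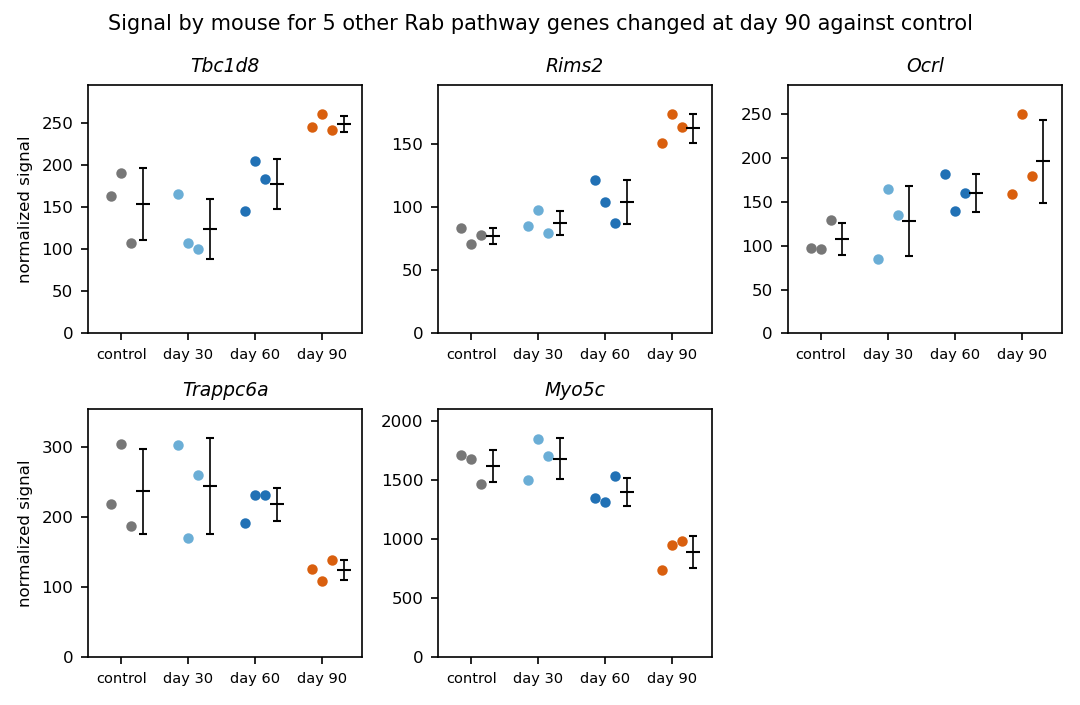
Normalized signal (linear axis from 0) in each mouse for 5 other Rab pathway genes that changed at day 90 against control, colored by group, with group mean and SD (n = 3) as black bars. Tbc1d8 and Rims2 are highest at day 90, Ocrl overlaps between day 60 and day 90, and Trappc6a and Myo5c are lowest at day 90.

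The promoters of the members that changed at day 90 and have an entry in the RefSeq promoter table of GRCm38.p6 are shown because these genes all changed at day 90 against day 60: Rabgap1, Rab3gap2 and Rab6b rose and Rab11a fell. Each window runs from 250 bases before to 50 bases after an annotated transcription start, 5′ to 3′ on the gene's own strand. Rab11fip1, Rab27b and Rabep1 are named only. The capitals mark 3 short motifs searched on both strands: the E-box CACGTG, the E-box CAGCTG and the GC box GGGCGG or its complement CCGCCC, and no marked motifs overlap.
Rab3gap2 promoter (chr1:185203918-185204217, plus strand): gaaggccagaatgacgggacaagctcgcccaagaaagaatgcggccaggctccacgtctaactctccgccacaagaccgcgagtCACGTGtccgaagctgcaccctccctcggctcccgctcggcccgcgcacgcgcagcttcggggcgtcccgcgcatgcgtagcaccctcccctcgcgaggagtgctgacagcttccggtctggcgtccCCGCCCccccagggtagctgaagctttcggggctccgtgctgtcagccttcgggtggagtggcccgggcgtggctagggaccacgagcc
Rabgap1 promoter (chr2:37443035-37443334, plus strand): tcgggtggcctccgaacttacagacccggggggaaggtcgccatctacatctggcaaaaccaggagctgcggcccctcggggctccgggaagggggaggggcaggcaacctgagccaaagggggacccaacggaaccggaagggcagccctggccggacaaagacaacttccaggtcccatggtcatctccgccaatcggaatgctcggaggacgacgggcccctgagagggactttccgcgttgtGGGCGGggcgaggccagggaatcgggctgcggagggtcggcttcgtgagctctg
Rabgap1 promoter (chr2:37452004-37452303, plus strand): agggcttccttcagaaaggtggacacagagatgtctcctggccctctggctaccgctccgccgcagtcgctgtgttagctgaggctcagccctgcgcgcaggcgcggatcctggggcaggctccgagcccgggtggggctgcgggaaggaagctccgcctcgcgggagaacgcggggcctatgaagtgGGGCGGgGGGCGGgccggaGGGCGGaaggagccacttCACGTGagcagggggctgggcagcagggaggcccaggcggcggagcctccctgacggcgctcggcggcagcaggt
Rab11a promoter (chr9:64737707-64738006, minus strand): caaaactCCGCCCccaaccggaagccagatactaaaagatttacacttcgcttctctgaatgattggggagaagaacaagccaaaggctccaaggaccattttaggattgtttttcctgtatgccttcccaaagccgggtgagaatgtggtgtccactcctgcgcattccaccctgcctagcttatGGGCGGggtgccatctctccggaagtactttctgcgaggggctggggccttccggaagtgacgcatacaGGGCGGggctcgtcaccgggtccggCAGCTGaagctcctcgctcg
Rab6b promoter (chr9:103111824-103112123, plus strand): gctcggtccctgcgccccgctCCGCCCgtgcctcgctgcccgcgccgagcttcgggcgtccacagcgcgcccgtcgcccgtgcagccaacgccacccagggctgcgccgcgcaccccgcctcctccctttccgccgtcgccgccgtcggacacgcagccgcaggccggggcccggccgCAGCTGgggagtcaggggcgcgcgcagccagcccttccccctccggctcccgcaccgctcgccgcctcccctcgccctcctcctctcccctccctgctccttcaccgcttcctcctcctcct
CACGTG was present in 7.15% of all 32851 windows of the table and in 9 of the 39 windows of the 29 matched members. Among the windows shown it was found in Rab3gap2 and in the second of the 2 Rabgap1 windows, both genes of GAP proteins that rose. CAGCTG was present in 16.3% of all windows and in 4 member windows, among them Rab6b, which rose, and Rab11a, which fell. GGGCGG was present in 35.7% of all windows and 31 member windows, including all 5 shown. A match of letters is a description of the sequence and says nothing of a factor bound there.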

How the data were processed

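The authors deposited non-normalized intensity values per probe, collected in BeadStudio from Sentrix Mouse-6 Beadchips, and a second table of intensity values that they normalized in R. The methods give vsn for normalization in R and quantile normalization for the t-tests. Within each array the second table was a linear function of the first, with a Spearman correlation of 1. Background had not been subtracted: 5th percentiles of the arrays lay between 68.8 and 93.7. Detection p-values and the slide of each array were not given in the sources used here, so no slide could enter a fit.

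The non-normalized intensities went through normexp correction (offset of 50), quantile normalization, a floor of 32 and log2 transformation in limma 3.58.1 in R 4.3.3. The offset makes folds of dim probes too small. Probes above 100 on at least 3 arrays were tested (22067 of 46116), each comparison by itself with 3 against 3 arrays (lmFit and eBayes, no covariate), with Benjamini-Hochberg adjustment over all tested probes and a threshold of 0.05. The number of arrays limits the precision. The fit was tested on simulated data.

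Gene names are absent from the files. A zero-padded NCBI gene number (9832 probes) or a RIKEN clone name (982 probes) inside the probe ID was matched to the RefSeq gene table of GRCm38.p6, which is an inference from the IDs. Of the 48 member probes, 42 were named by number and 6 by clone. The members, gene lists, roles and comparisons were chosen with earlier results of these data known. The roles of Rab10os, Rab42, Rab44 and Rabepk were assigned after their probes had been seen and enter no test. Named genes were, in each comparison, up to 15 rises and falls past the threshold, or the 3 with the smallest p where fewer than 3 passed, every granule member, for a role with no change its member with the highest mean, and genes whose probes disagreed. Of the other pathway genes, the 2 to 4 changed genes with the largest folds of each list were named, and Sgsm3, Dennd2d, Rin1, Micall2 and the unchanged effectors of secretory Rabs were added after their values were seen. 1 gene of these lists is not reported here. Cell type markers were used as lists of summed signal.

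Mouse numbers recur in all groups, but the labels link no animals, and correlations of same-numbered deviations were between -0.43 and 0.36, so no block was used. Other settings tried were no background correction or a smaller offset, 75th percentile scaling, a floor of 100, no filter or a filter at 200, the authors' normalized values, a joint fit of the 4 groups, eBayes with trend and robust options, the t-test of the methods, a replicate block, averaging the probes of a gene, and the omission of each array.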

Additional observations from a re-analysis of the deposited data

Results flagged for a closer look

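Day 60 was the group from which 6 members differed at day 90, while against the controls Rabgap1 and Rab11fip1 passed. The effects at day 60 and day 90 against control share the controls, so their difference is the test of day 90 against day 60. The 6 members were picked by that limma test, so its passing adds no further evidence. They were 19.4% of the tested members, beside 19.8% of all tested probes. Groups did not overlap for 48.4% of the members and 34.2% of all probes. The log2 difference between the ages was -0.73 for Rab27b, -0.53 for Rab11a, 0.62 for Rabgap1, 0.49 for Rab6b, 0.46 for Rabep1 and 0.40 for Rab3gap2, each with no overlap between the 3 mice of one age and the 3 of the other. The 2 falls held in 18 and 17 of 19 alternatives, for Rab27b and Rab11a, and the rise of Rabgap1 in 17 of 19. Rabep1 kept its call in 13 of 18, Rab6b in 11 of 18 and Rab3gap2 in 11 of 19. Some alternatives were settled in advance. The t-test with a fold limit of 2 could pass no member, as the largest fold was 1.65. Averaging the probes of a gene left the fold changes of these 6 members as they were.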

How the results depend on the processing

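At day 90 against control the count of changed members was 2 and became 1 (Rabgap1) with no background correction, no filter on dim probes, a filter at 200 or the replicate block, and 0 under the methods' t-test, both adjusted and with its fold and difference limits. It became 3 with 1 fit of all 4 groups, where Rab21 also fell (adjusted p = 0.0445), and with a trended and robust spread, where Rab43 also fell (adjusted p = 0.0477). The t-tests used the signals above, whose offset of 50 makes folds of dim probes too small. Their adjustment was added here, and they do not repeat the authors' own calls. Leaving out 1 array gave 0 to 2. The deposited normalized values called 3 rises (Rabgap1, Rab6b and Rabep1) and no fall. They also moved the median log2 fold change of all probes from -0.04 to 0.07 and the share of higher calls from 53.1% to 73.2% (from 50.3% to 63.2% at day 90 against day 60), and a filter at 200 gave 45.7% and 42.7%. At day 90 against day 60 the count was 6, and 3 and 0 under the same t-tests, where the 3 were falls of Rab11a, Rab27b and Rab35 and none of the 4 rises passed. Rab24 rose at day 90 against day 60 with 75th percentile scaling and with a floor of 100. With the deposited normalized values the log2 fold change at day 90 against day 60 was 0.83 for Rabep1 and 0.82 for Rab6b, against 0.46 and 0.49. Leaving out 1 array gave 3 to 7, where Rabac1 was gained without day 90 mouse 1. The replicate block gave 5, losing Rab3gap2, and as mouse numbers link no animals this is no sign of a weaker effect. Rab27b was the 1 member called at day 60 against control with a trended and robust spread, and at day 60 against day 30 leaving out 1 array gave 0 to 1 calls. No called member changed direction in any alternative, but most alternatives could not have shown such a change. Other filters and fits reuse the same fold change, and omitting an array cannot reverse groups that do not overlap. Signals near 100 leave Rab11fip1, Rab26 and Rab3c little room above background. The causes of these changes were not tested.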
